A study of Mus musculus with 4 samples.

Results

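The genes described here are 9 of the 31053 genes counted in droplet single-cell RNA-seq libraries of mouse thymic epithelial cells (TECs). They code for parts of the smooth-muscle-type actin cytoskeleton, and they were chosen because several of them had stood out in Ccl21a-high medullary TECs (mTECs) of these libraries. They comprise the actins Acta2 and Actg2, the actin-binding proteins Tagln and Cnn1, the tropomyosins Tpm1 and Tpm2, the myosin light chain Myl9, the myosin light chain kinase gene Mylk and the actin-anchoring protein gene Pdlim3. All 9 were present in the gene table by symbol, and their unique molecular identifiers (UMIs) were summed in each library over cells gated by marker genes. The 4 libraries were WT-Control (C57BL/6 wild-type mice given a rat IgG isotype control), WT-RANKL-Ab (wild-type mice given a neutralizing antibody to RANKL), Cd40-/- Control (Cd40-deficient mice on the C57BL/6 background given the control IgG) and Cd40-/- RANKL-Ab (Cd40-deficient mice given the antibody). Each antibody was injected subcutaneously at 5 mg/kg at 4 weeks of age, and thymi were taken 2 weeks later from 6-week-old mice. Each library held EPCAM+ CD45- TER119- cells pooled from 3 mice. No condition had a second library, so no test between conditions was possible, and every interval below is a 95% interval that covers counting error only. Cd40 was lost in the whole mouse in the Cd40-/- groups, so that effects within and outside TECs cannot be told apart.

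After filtering, the libraries held 10218 cells for WT-Control, 7164 for WT-RANKL-Ab, 8591 for Cd40-/- Control, and 2082 for Cd40-/- RANKL-Ab, with 19153685 to 95277834 UMIs a library and a median of 6086 to 7621.5 UMIs a cell. Cd40 itself was at 110 and 28.8 UMIs per 1000000 (CPM) in the wild-type libraries against 5.75 and 4.75 CPM in the Cd40-/- libraries. The 3′ reads may lie outside the deleted part of that gene. Pairs of libraries shared between 17 and 205 cell barcodes. Ccl21a-high cells were those with at least 50 Ccl21a UMIs per 10000 that had passed no earlier gate, and they numbered 3436, 3408, 1934 and 785 in the same library order. They made up 33.6%, 47.6%, 22.5% and 37.7% of the cells. In WT-Control they held Ccl21a at 24636.5 CPM, against 7505 CPM over all cells, with the keratins Krt5 and Krt14 at 1472 and 1997 CPM, Aire at 65.1 CPM against 332.6 CPM over all cells, and the cTEC gene Psmb11 at 4.87 CPM. They were divided further by Mgp and Gpx3, 2 genes that mark one side of the Ccl21a-high population.

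Ccl21a-expressing mTECs secrete the chemokine CCL21, which draws positively selected thymocytes into the medulla, and RANK and CD40 are the TNF-family receptors through which thymocytes drive mTEC maturation. In a contractile cell, actin filaments carry tropomyosin along their length, myosin II pulls on them, and phosphorylation of the regulatory light chain by myosin light chain kinase switches the motor on. Smooth muscle, myoepithelial cells and activated stromal cells use the variants of these proteins listed above, and most of their genes respond to serum response factor (SRF) and its partners of the myocardin family, which bind CArG boxes. ACTA2 is also found in activated fibroblasts and in some epithelial cells, and its presence alone does not mark a muscle cell.

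The CArG box is shown because it is the element that the contractile genes are best known to share. It reads CC, a centre of 6 bases that are each A or T, and GG, and the same pattern is found on either strand. RefSeq promoters (GRCm38.p6) were matched for 7 of the 9 genes, all but Tagln and Actg2, which were not searched. For the 7 genes the 250 bases before each RefSeq start were searched. RefSeq starts can differ from the outer gene ends given below, and the Mylk window (chr16:34784700-34784949) lies inside the gene, at an internal start. Only Myl9 held a box by this rule, against 1.47% of 32851 promoters. With at most 1 G or C allowed in the centre, a setting taken after the sequences had been seen, Acta2, Myl9 and Pdlim3 held a box, against 8.59% of all promoters, and Acta2 and Myl9 held 2 each, against 0.670%. The MCAT motif (CATTCC, both strands, overlap with the boxes not examined) was found upstream of Acta2, Tpm1, Pdlim3 and Mylk, against 12.6% of all promoters. In the lines that follow the box is in capitals, and every window is on the strand of the gene. They give the Acta2 boxes 84 and 34 bases before the start (chr19:34255438-34255467 and chr19:34255388-34255417, minus strand), the Myl9 boxes 161 and 99 bases before it (chr2:156775293-156775322 and chr2:156775355-156775384, plus strand) and the Pdlim3 box 100 bases before it (chr8:45885377-45885406, plus strand).
Acta2, distal: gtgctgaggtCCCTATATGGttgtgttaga
Acta2, proximal: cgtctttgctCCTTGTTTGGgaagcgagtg
Myl9, distal: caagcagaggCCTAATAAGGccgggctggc
Myl9, proximal: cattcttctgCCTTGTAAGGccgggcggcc
Pdlim3: tctctcacttCCAAAGTTGGagctctcctt
These are matches of letters and not evidence of binding, and the absence of a box in Tpm1, Tpm2, Cnn1 and Mylk refers to these 250 bases alone.

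In WT-Control, 6 of the 9 genes were higher in Ccl21a-high cells than in all other cells by at least 2-fold on the log2(CPM + 10) scale, namely Acta2, Tagln, Tpm1, Tpm2, Myl9 and Pdlim3. Over all genes with at least 50 UMIs in that comparison, 3.1% were higher by as much. The genes were chosen for this contrast, so the count is a description and nothing is read from it. Acta2 was at 991.6 CPM (95% interval 979.4 to 1004) in Ccl21a-high cells and at 90.3 CPM in all other cells, a 10.98-fold difference. For Tagln the levels were 841.1 and 56.9 CPM, a 14.8-fold difference. The other three members, Cnn1, Actg2 and Mylk, were not higher by 2-fold on this scale in Ccl21a-high cells of WT-Control. The 6 genes were also 2-fold higher in Ccl21a-high cells of Cd40-/- Control (background 3.01%). In WT-RANKL-Ab 4 of the 8 that could be assessed were (background 1.72%), and in Cd40-/- RANKL-Ab 5 of 7 were (background 2.2%). The mix of all other cells differed between libraries, with 2108, 167, 1383 and 1 Aire-positive cells in the library order above. Its part in these counts was not tested. Levels were compared for the same gene across classes, and not between genes, because 3′ UMIs tally molecules and do not resolve the isoforms of Tpm1, Tpm2 and Mylk.

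**Figure D1:**
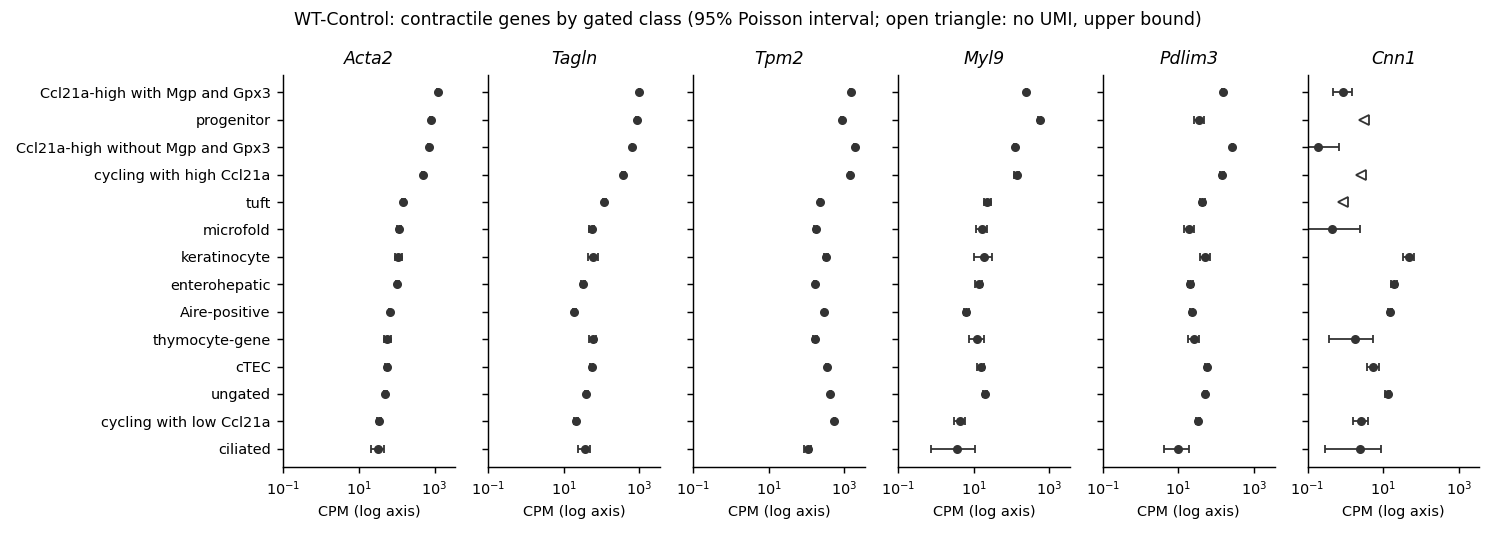
Levels of 6 of the genes in each gated class of WT-Control, in CPM on a log axis, with 95% Poisson intervals; an open triangle marks the upper bound where a class had no UMI. Acta2 and Tagln were highest in Ccl21a-high cells with Mgp and Gpx3, and Tpm2 and Pdlim3 in those without. Myl9 was highest in progenitor-gated cells and Cnn1 in keratinocyte-gated cells.

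ACTA2 is the smooth muscle alpha-actin (chr19:34241090-34255590, minus strand, GRCm38). Its level in Ccl21a-high cells was 991.6 CPM (WT-Control), 1685 CPM (WT-RANKL-Ab, 1668 to 1702), 1367 CPM (Cd40-/- Control, 1346 to 1388) and 2700 CPM (Cd40-/- RANKL-Ab, 2660 to 2741), from 16450 to 39248 UMIs. The level was lowest in WT-Control and highest where both signals were reduced. The counting intervals of the 4 libraries did not overlap. At so many UMIs they are narrow, and they leave out variation between pools of mice. The log2 ratio to WT-Control was 0.76 (0.74 to 0.79, 1.70-fold) for WT-RANKL-Ab, 0.46 (1.38-fold) for Cd40-/- Control and 1.45 (1.42 to 1.47, 2.72-fold) for Cd40-/- RANKL-Ab. Without cells that held a mural or mesenchymal marker the ratio of Cd40-/- Control was -0.0086, a setting that took out 2704 of the 3436 Ccl21a-high cells of WT-Control. These 3 ratios share the WT-Control library. Within the Cd40-deficient pair the ratio of the antibody to the control library was 0.98 (0.95 to 1.01, 1.98-fold).

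The share of Ccl21a-high cells with an Acta2 UMI followed the same order once every cell was thinned to 1000 UMIs. It was 40.4% (WT-Control, 38.7 to 42.1), 49.1% (WT-RANKL-Ab, 47.3 to 50.8), 45.1% (Cd40-/- Control, 42.8 to 47.4) and 61.7% (Cd40-/- RANKL-Ab, 58.2 to 65.2). Without thinning the shares were 60.7%, 67.8%, 63.8% and 81.5%. Thinning left out the cells with fewer UMIs and kept 3293, 3308, 1844 and 776 Ccl21a-high cells. In tuft-gated cells, a mature chemosensory type that is not known to use Acta2, the thinned share was 4.86%, 7.97%, 3.42% and 8.47% (15.1%, 20.6%, 11.7% and 27.4% unthinned), at a median depth of 6890, 5956, 5236 and 6711.5 UMIs against 6203.5, 6488, 5628.5 and 7435 in Ccl21a-high cells. The tuft-gated level of Acta2 was 149, 143, 123 and 158 CPM. In cells with thymocyte genes it was 56.7, 71.1, 29.8 and 84.6 CPM, higher in the antibody library of each genotype. With the UMIs per cell found in cells with thymocyte genes of the same library subtracted, the log2 ratios of Acta2 to WT-Control were 0.81, 0.55 and 1.51.

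ACTG2, the enteric smooth muscle gamma-actin (chr6:83512905-83536265, minus strand), was near the bottom of the range. Ccl21a-high cells held 4.63 CPM (WT-Control), 6.65 CPM (WT-RANKL-Ab), 3.99 CPM (Cd40-/- Control) and 5.93 CPM (Cd40-/- RANKL-Ab). In WT-Control the level was higher in cells with thymocyte genes (12.8 CPM), cTEC-gated cells (10.7 CPM) and Aire-positive cells (9.55 CPM). In the antibody libraries it ranked highest on both sides of the Ccl21a-high population, and Ccl21a-high cells held 4.44-fold (WT-RANKL-Ab, 155 against 38 UMIs) and 6.87-fold (Cd40-/- RANKL-Ab, 38 against 11 UMIs) the CPM of all other cells, which were at 1.499 and 0.863 CPM. Those other cells held 167 and 1 Aire-positive cells in the antibody libraries, against 2108 and 1383 in the control libraries. The part of this in the folds was not tested. In Ccl21a-high cells the log2 ratio of WT-RANKL-Ab to WT-Control was 0.52 (0.17 to 0.88). That of Cd40-/- RANKL-Ab to Cd40-/- Control was 0.57 (-0.08 to 1.22), an interval that takes in 0. Actins are a family of closely similar genes, and how reads shared among them were counted was not examined.

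TAGLN (transgelin, also SM22-alpha; chr9:45929619-45936058, minus strand) cross-links actin filaments, and its gene is among the first to be expressed in smooth muscle. In Ccl21a-high cells it was at 841.1 CPM (WT-Control), 1348 CPM (WT-RANKL-Ab), 908.0 CPM (Cd40-/- Control) and 2031 CPM (Cd40-/- RANKL-Ab). The order was that of Acta2, but Cd40-/- Control lay close to WT-Control, with a log2 ratio of 0.11 (1.08-fold) that turned to -0.057 under scaling by trimmed means (TMM), which moved all genes by -0.17 in this comparison. The other ratios to WT-Control were 0.68 (1.60-fold) for WT-RANKL-Ab and 1.27 (2.41-fold) for Cd40-/- RANKL-Ab, and the antibody library of the Cd40-deficient pair was higher than its control by 1.16 (2.24-fold). The thinned share of cells with a Tagln UMI was 43.9%, 55.7%, 41.6% and 63.3% (74.0%, 81.1%, 69.0% and 88.2% unthinned), against 4.86%, 5.53%, 3.04% and 8.47% of tuft-gated cells. On this scale Cd40-/- Control lay below WT-Control. For every 100 Acta2 UMIs, Ccl21a-high cells held 84.8, 80.0, 66.4 and 75.2 Tagln UMIs.

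CNN1 (calponin 1, which binds actin and restrains myosin; chr9:22099216-22109630, plus strand) is a marker of differentiated smooth muscle and was close to absent. Ccl21a-high cells held 15 Cnn1 UMIs (WT-Control), 5 UMIs (WT-RANKL-Ab), 5 UMIs (Cd40-/- Control) and 0 UMIs (Cd40-/- RANKL-Ab), which is at most 0.589 CPM. The count of 0 allows a level of up to 0.468 CPM (3 UMIs). In WT-Control its level was highest in keratinocyte-gated cells (46.97 CPM from 38 UMIs), followed by enterohepatic-gated cells (19.3 CPM) and Aire-positive cells (14.95 CPM). The class with the highest Acta2 and the class with the highest Cnn1 were therefore not the same. Over all cells other than Ccl21a-high cells Cnn1 was at 10.6 CPM (WT-Control), 0.434 CPM (WT-RANKL-Ab), 7.26 CPM (Cd40-/- Control) and 0 CPM (Cd40-/- RANKL-Ab). The count of 0 allows up to 0.235 CPM there. The mix of these cells differed, with 2108, 167, 1383 and 1 Aire-positive and 744, 128, 529 and 1 enterohepatic-gated cells in that order. Keratinocyte-gated cells numbered 124, 31, 122 and 5. In Aire-positive cells Cnn1 was 2.89% of the members' UMIs in WT-Control and 0.125% in WT-RANKL-Ab. The part of the mix in the Cnn1 levels was not tested.

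Tropomyosins coat the actin filament and set which myosins can bind it, and these genes differed from the actin and transgelin pattern and from each other. TPM1 (chr9:67022590-67049406, minus strand) was at 285.8 CPM (WT-Control), 243.5 CPM (WT-RANKL-Ab), 456.3 CPM (Cd40-/- Control) and 415.4 CPM (Cd40-/- RANKL-Ab). Both Cd40-/- libraries were higher than both wild-type libraries, with log2 ratios to WT-Control of 0.67 (1.60-fold) and 0.54 (1.45-fold), while the antibody library was lower than its control in each genotype (-0.23 and -0.14). The thinned shares had the same order (25.5%, 20.1%, 36.5% and 31.3%; 73.7%, 67.7%, 79.9% and 81.4% unthinned), although 12.96% to 27.1% of tuft-gated cells also held a Tpm1 UMI after thinning. TPM2 (chr4:43514711-43523765, minus strand) was at 1648 CPM (WT-Control), 1445 CPM (WT-RANKL-Ab), 1338 CPM (Cd40-/- Control) and 1723 CPM (Cd40-/- RANKL-Ab). Its levels stayed within a narrow range, with log2 ratios to WT-Control of -0.19, -0.30 and 0.06, and it made up 39.4% of the members' UMIs in WT-Control but 22.9% in Cd40-/- RANKL-Ab.

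MYL9 (chr2:156775420-156781658, plus strand) is the regulatory light chain of smooth muscle and non-muscle myosin II. Its level was 195.5 CPM (WT-Control), 295.2 CPM (WT-RANKL-Ab), 211.6 CPM (Cd40-/- Control) and 444.4 CPM (Cd40-/- RANKL-Ab). It had the order of Tagln, with log2 ratios to WT-Control of 0.59 (1.51-fold), 0.11 (1.08-fold; -0.053 under TMM scaling) and 1.19 (2.27-fold), and of 1.07 (2.10-fold) within the Cd40-deficient pair. Thinned shares were 15.2%, 21.5%, 16.9% and 28.2% (46.7%, 56.8%, 46.2% and 67.1% unthinned), against 1.14% to 2.60% of tuft-gated cells. MYLK (chr16:34745210-35002420, plus strand) codes for the kinase that phosphorylates this light chain. It was at 10.25 CPM (WT-Control), 14.25 CPM (WT-RANKL-Ab), 12.63 CPM (Cd40-/- Control) and 9.20 CPM (Cd40-/- RANKL-Ab), and in each library 1 or more other classes exceeded the Ccl21a-high level. The log2 ratio of Mylk within the Cd40-deficient pair, -0.46, turned to 0.56 in thinned cells and to 1.55 after free RNA was subtracted, so its order across the libraries was not settled.

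PDLIM3 (also ALP; chr8:45885461-45919548, plus strand) ties alpha-actinin to other proteins at the ends of actin filaments. It was at 201.1 CPM (WT-Control), 326.5 CPM (WT-RANKL-Ab), 164.6 CPM (Cd40-/- Control) and 179.1 CPM (Cd40-/- RANKL-Ab). WT-RANKL-Ab alone stood higher, with a log2 ratio to WT-Control of 0.70 (0.65 to 0.75), and both Cd40-/- libraries were below WT-Control (-0.29 and -0.17), although the second ratio turned to 0.35 without cells that held a mural or mesenchymal marker. The antibody library exceeded its control by 0.12 (0.02 to 0.23) in the Cd40-deficient pair. Cells with Mgp and Gpx3 made up 591 of 785 Ccl21a-high cells in Cd40-/- RANKL-Ab and 2002 of 3436 in WT-Control. In them Pdlim3 was at 147.8 CPM (Cd40-/- RANKL-Ab), 114.3 CPM (Cd40-/- Control) and 152.2 CPM (WT-Control). In cells without Mgp and Gpx3 it was at 276.1, 244.5 and 267.6 CPM in the same order. The part of this mix in the Pdlim3 ratios was not tested. The difference between the antibody ratios of the 2 genotypes was -0.58 for Pdlim3 and 0.22 for Acta2, and it was not tested, since each ratio comes from single libraries. The thinned shares were 17.8%, 26.0%, 15.6% and 15.3% (58.9%, 72.1%, 46.8% and 53.5% unthinned), against 2.66% to 7.97% of tuft-gated cells.

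**Figure D2:**
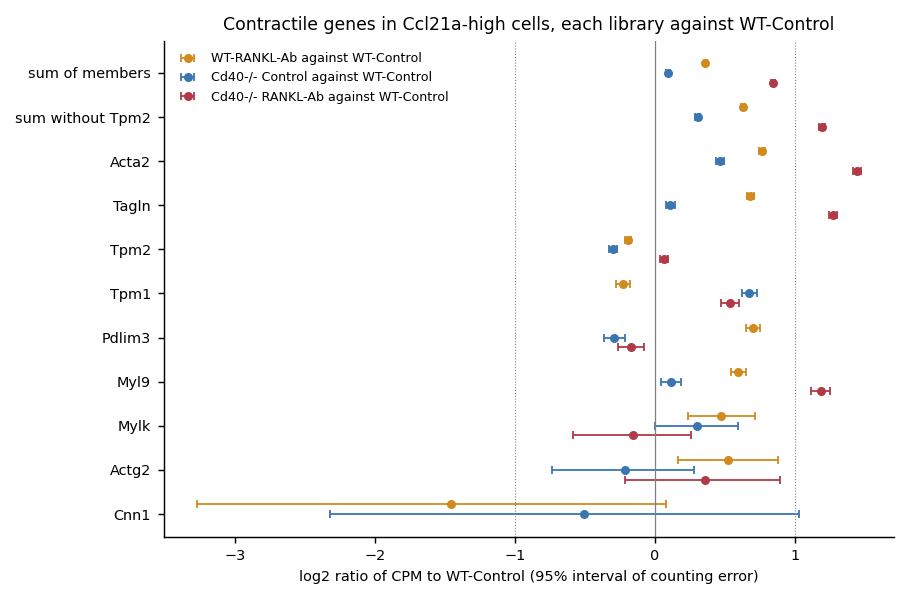
Log2 ratio of CPM to WT-Control in Ccl21a-high cells for each gene, for the sum of the 9 genes and for the sum without Tpm2; bars are 95% intervals of counting error and dotted lines mark 2-fold. Acta2, Tagln and Myl9 in Cd40-/- RANKL-Ab lie beyond 2-fold, whereas Tpm2 stays between -0.30 and 0.06.

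Counted over the set, 8 of the 9 genes had at least 50 UMIs in Ccl21a-high cells of each pair of libraries, and Cnn1 did not. In Cd40-/- RANKL-Ab against WT-Control 3 of the 8 were at least 2-fold higher (Acta2, Tagln and Myl9) and none was 2-fold lower, where 1.42% of 12625 genes were 2-fold higher and 2.41% lower. The members' median log2 ratio was 0.32 beside 0.06 over all genes. In Cd40-/- RANKL-Ab against Cd40-/- Control 2 of 8 were higher (Tagln and Myl9; background 0.671% higher, 2.04% lower), with Acta2 just below the limit. In WT-RANKL-Ab against WT-Control (background 0.166% higher, 1.21% lower) and in Cd40-/- Control against WT-Control (0.5% and 0.492%) none of the 8 passed 2-fold, and the members' medians were 0.42 and 0.11 beside 0.07 and 0.06 over all genes. As a single sum, the 9 genes were at 4178 CPM (WT-Control, 4153 to 4203), 5364 CPM (WT-RANKL-Ab, 5334 to 5394), 4463 CPM (Cd40-/- Control, 4426 to 4501) and 7508 CPM (Cd40-/- RANKL-Ab, 7441 to 7576). The log2 ratios of the sum to WT-Control were 0.36, 0.10 and 0.85. The ratio of Cd40-/- Control turned to -0.07 under TMM scaling and to -0.07 without cells that held a mural or mesenchymal marker, so its direction was not settled by these data.

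**Figure D3:**
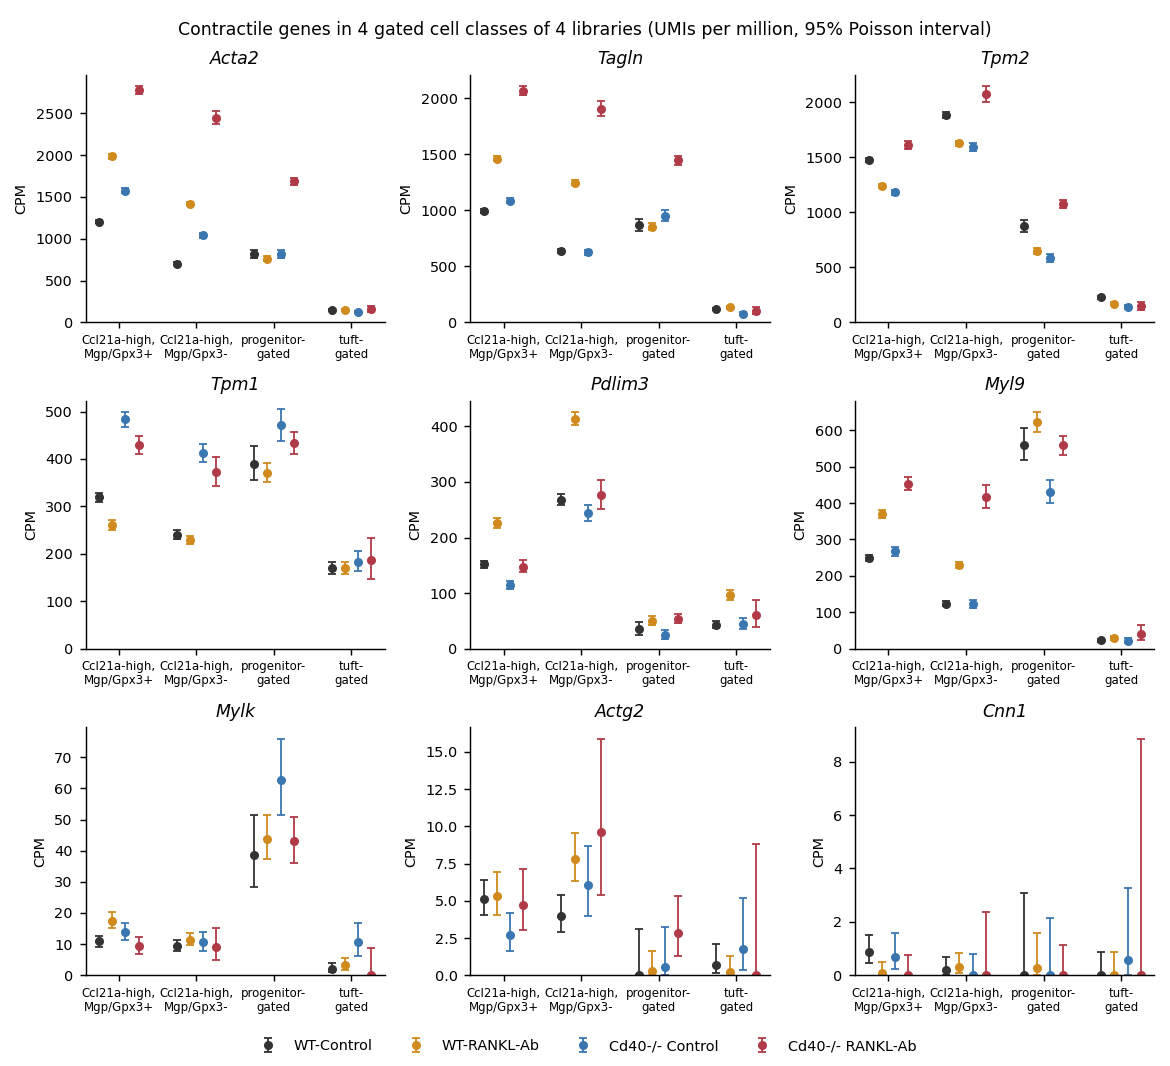
Level of each of the 9 genes in 4 gated classes (x axis) of the 4 libraries (colours), in CPM with 95% Poisson intervals; each panel has its own axis from 0. Acta2 and Tagln in Ccl21a-high cells are highest in Cd40-/- RANKL-Ab at 2700 and 2031 CPM, and Pdlim3 is highest in WT-RANKL-Ab.

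The sides of the Ccl21a-high population differed in which contractile genes they held. Cells with Mgp and Gpx3 numbered 2002, 1501, 1203 and 591, and those without numbered 1434, 1907, 731 and 194. In WT-Control Acta2 was at 1205 CPM in cells with and 701.2 CPM in cells without Mgp and Gpx3, Tagln at 991.8 and 636.3 CPM, and Myl9 at 248.5 and 123.4 CPM. Pdlim3 went the other way, at 152.2 and 267.6 CPM, as did Tpm2 at 1476 and 1881 CPM. Every one of these 5 genes kept that direction in all 4 libraries, although for Myl9 in Cd40-/- RANKL-Ab the log2 ratio was 0.12 with an interval that takes in 0 (-0.0044 to 0.25). Acta2 was higher in the cells with Mgp and Gpx3 by 1.72-fold, 1.40-fold, 1.51-fold and 1.14-fold in the library order above, and Pdlim3 was at 0.467 to 0.569 times the level of the cells without.

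The higher levels in the antibody libraries were present on both sides. In cells with Mgp and Gpx3 Acta2 was at 1986 CPM (WT-RANKL-Ab), 1573 CPM (Cd40-/- Control) and 2781 CPM (Cd40-/- RANKL-Ab). In cells without them it was at 1421, 1040 and 2449 CPM. The ratio of Cd40-/- RANKL-Ab to WT-Control was thus 2.31-fold with and 3.49-fold without Mgp and Gpx3 for Acta2, 2.09-fold and 2.999-fold for Tagln, and 1.82-fold and 3.37-fold for Myl9. The members past 2-fold in that comparison were 2 of 8 in cells with (Acta2 and Tagln; background 1.4%) and 3 of 8 in cells without (Acta2, Tagln and Myl9; background 2.04%). In WT-RANKL-Ab against WT-Control Acta2 passed 2-fold in the cells without Mgp and Gpx3 (background 0.184%) and no member did in the cells with (background 0.176%). In the Cd40-deficient pair 3 of 7 passed it in the cells without (Acta2, Tagln and Myl9; background 1.16%) and none of 7 in the cells with (background 0.633%), where Tagln was 1.91-fold higher.

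The level of contractile genes did not simply follow that of Ccl21a. The gate left 325, 262, 316 and 27 cells just inside its limit (50 to 100 Ccl21a UMIs per 10000) and 226, 308, 209 and 7 just outside it (25 to 50). Acta2 was at 378, 554, 828 and 1854 CPM just inside and at 121, 313, 449 and 339 CPM just outside. Going up in Ccl21a, Acta2 in WT-Control was at 940 CPM in cells with 100 to 200 Ccl21a UMIs per 10000, 1210 CPM in those with 200 to 300, 1061 CPM in those with 300 to 500 and 511 CPM in the 115 cells above 500. The highest level was in the middle of the range in WT-Control, WT-RANKL-Ab and Cd40-/- Control, at 1210, 2043 and 1635 CPM in the cells with 200 to 300. Ccl21a itself was at 24636.5, 27247, 20128 and 38290 CPM in the 4 libraries. At equal Ccl21a (200 to 300) Acta2 was still at 2832 CPM in Cd40-/- RANKL-Ab, above the 1210 CPM of WT-Control.

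**Figure D4:**
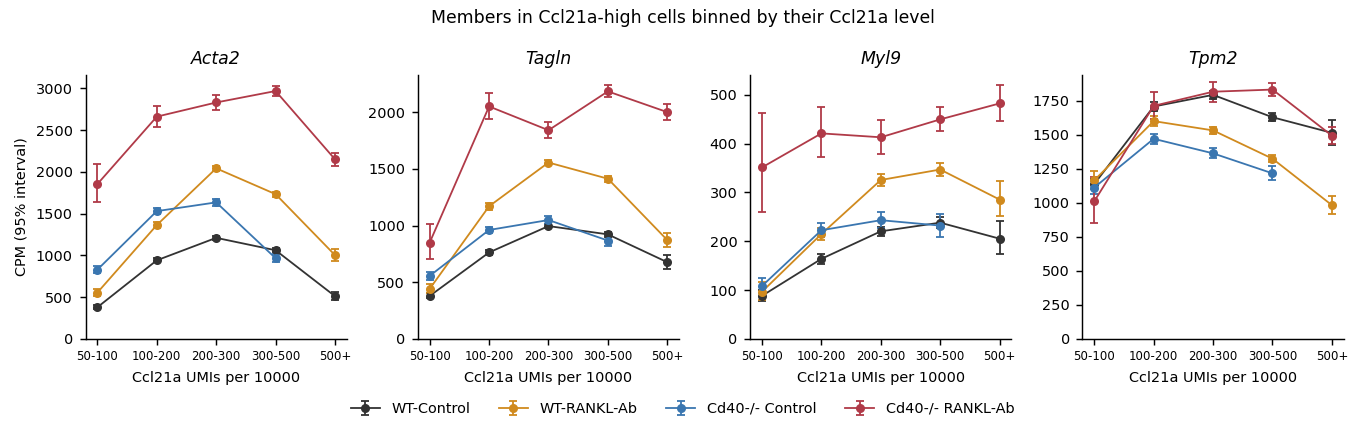
Levels of contractile genes (CPM, 95% intervals) in Ccl21a-high cells placed in bins of Ccl21a UMIs per 10000 (x axis), one line per library. Acta2 peaks at 200 to 300 in 3 libraries, and its level in Cd40-/- RANKL-Ab lies above that of WT-Control in every bin.

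Among single cells Acta2 and Tagln went together. After thinning, 24.4% of WT-Control Ccl21a-high cells held both Acta2 and Tagln, where independence of the 2 would give 17.7%. In the other libraries both were found in 34.6%, 25.3% and 44.6% (27.3%, 18.8% and 39.1% if independent), and the Spearman correlation over cells was 0.33 to 0.37 in the 4 libraries. Between Acta2 and Myl9 it was 0.19 to 0.26, and between Acta2 and Pdlim3 it was 0.01 to 0.08, from which nothing is read in counts this sparse. These are descriptions over cells that share a library. The summed Acta2 and Tagln UMIs of a thinned cell had a mean of 1.89, 2.97, 2.16 and 4.19 in the library order above. Cells with none of either made up 40.1%, 29.8%, 38.6% and 19.6%, and cells with 5 or more made up 13.5%, 23.5%, 16.1% and 33.0%. The difference therefore ran through the distribution and was not carried by a few cells alone, with medians of 1, 2, 1 and 3 UMIs.

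**Figure D5:**
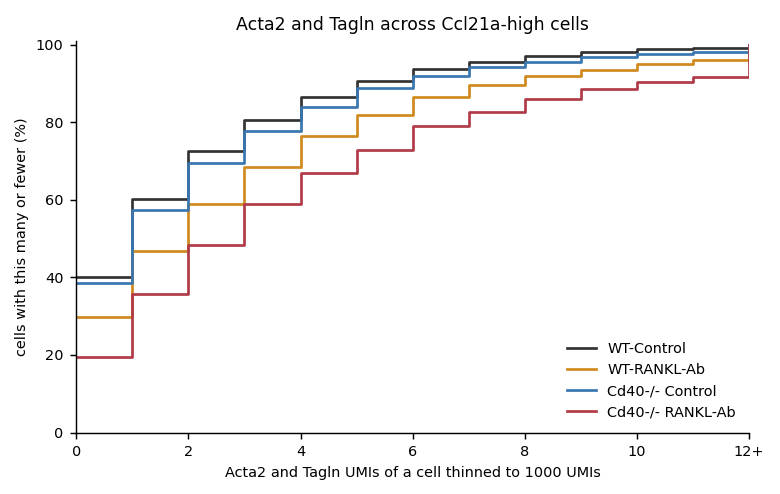
Cumulative share of Ccl21a-high cells (y axis, %) with a given number or fewer of summed Acta2 and Tagln UMIs (x axis) after each cell was thinned to 1000 UMIs, one step line per library. The line of Cd40-/- RANKL-Ab lies lowest, from 19.6% of cells with none, against 40.1% in WT-Control.

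Several of the genes were also high in progenitor-gated cells, which were picked by Pdpn, Dcn, Ackr4, Serpinf1 and Fmod and numbered 173, 564, 323 and 392. Acta2 was at 818.6, 759.4, 817.7 and 1687 CPM in them, Tagln at 868.9, 856.1, 951.9 and 1447 CPM and Myl9 at 560.5, 621.7, 431.4 and 558.3 CPM. Myl9 was thus higher in progenitor-gated than in Ccl21a-high cells in all 4 libraries. So was Tpm1, at 390, 371, 471 and 433 CPM against 286, 244, 456 and 415 CPM. In the Cd40-/- libraries its 2 levels lay close together, from 803 and 1389 UMIs in progenitor-gated cells. Tagln was slightly higher in progenitor-gated cells in WT-Control (1037 UMIs) and Cd40-/- Control (1624 UMIs) and lower in both antibody libraries. Nothing is read from these small differences in Tpm1 and Tagln. Pdlim3, at 24.6 to 54.3 CPM, was lower in progenitor-gated cells in all 4. Mylk was at 38.5, 43.9, 62.7 and 43.1 CPM, above its Ccl21a-high level in each. Against all remaining cells other than Ccl21a-high cells, 6 of 9 genes were 2-fold higher in progenitor-gated cells of WT-Control (background 5.4%) and 5 of 7 in WT-RANKL-Ab (3.69%). The counts were 6 of 9 in Cd40-/- Control (5.11%) and 6 of 7 in Cd40-/- RANKL-Ab (3.73%), and Acta2, Tagln, Tpm1, Myl9 and Mylk were among them in every library. For Acta2 the log2 ratio to WT-Control was -0.11 for WT-RANKL-Ab (-0.21 to -0.00094), -0.0016 for Cd40-/- Control (-0.12 to 0.12) and 1.04 for Cd40-/- RANKL-Ab (0.94 to 1.14), so the wild-type antibody library was not higher here. Progenitor-gated cells of Cd40-/- RANKL-Ab also held more Ccl21a (23343 CPM against 7012 to 7703 CPM in the other libraries), and the part of this in the Acta2 values was not tested. The progenitor gate came before the Ccl21a gate, so cells with high Ccl21a that passed it were counted here. The class made up 18.8% of cells in that library against 1.69% to 7.87% in the others. The Acta2 ratio of 1.04 may therefore not compare like cells.

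In WT-Control the 104 cycling cells with high Ccl21a had Acta2 at 497 CPM and Tagln at 378 CPM, below progenitor-gated cells, and Tpm2 at 1402 CPM and Pdlim3 at 145 CPM, above them (871 and 35.2 CPM). In WT-RANKL-Ab the cycling cells with high Ccl21a exceeded progenitor-gated cells for Acta2 as well, at 1119 CPM. In cTEC-gated cells Acta2 was at 55.4 CPM (WT-Control), 272 CPM (WT-RANKL-Ab), 80.4 CPM (Cd40-/- Control) and 275.2 CPM (Cd40-/- RANKL-Ab), and Ccl21a was higher in the same 2 antibody libraries (5803 and 4510 CPM against 1674 and 2233 CPM). The part of free RNA or of doublets in this was not tested. For every 1000 Ccl21a UMIs, Ccl21a-high cells of WT-Control held 40.2 Acta2 and 7.93 Myl9 UMIs, tuft-gated cells 48.9 and 7.56, and progenitor-gated cells 117 and 79.9. In Cd40-/- RANKL-Ab the order was another one, with 70.5 Acta2 UMIs in Ccl21a-high cells, 48.2 in tuft-gated cells and 72.2 in progenitor-gated cells.

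Smooth muscle and pericytes also express Acta2, Tagln and Myl9, and markers of such cells were read in the same sums. In Ccl21a-high cells the 11 mural and mesenchymal markers together were at 730.8 CPM (WT-Control), 453.6 CPM (WT-RANKL-Ab), 608.5 CPM (Cd40-/- Control) and 134.1 CPM (Cd40-/- RANKL-Ab). Of these, Rgs5 alone gave 705.6, 428.2, 556.5 and 96.7 CPM, and the other 10 gave 25.2, 25.3, 52.0 and 37.4 CPM. Rgs5 was higher than in all other cells, which held 217.5, 149.0, 214.9 and 13.3 CPM. Notch3, a receptor of mural cells, was at 11.98, 17.9, 12.6 and 4.06 CPM against 1.82, 4.85, 3.56 and 3.37 CPM in all other cells, and Col3a1, a fibrillar collagen of mesenchyme, at 24.1 and 23.4 CPM in the Cd40-/- libraries against 4.70 and 12.2 CPM. The mural markers Pdgfrb, Kcnj8 and Abcc9 were each at 1.25 CPM or lower in all 4 libraries, with 0 UMIs of Kcnj8 in Cd40-/- Control and of Abcc9 in WT-RANKL-Ab. The part of mural and mesenchymal RNA in the levels of the contractile genes was not tested beyond these values and the removal of cells with such markers. The 6 endothelial markers together gave 2.36 to 13.9 CPM. The epithelial markers Epcam, Krt8 and Krt18 were at 523 CPM or more over all cells of each library.

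Other smooth muscle genes were also read from a list of 12. In Ccl21a-high cells none was 2-fold higher or lower in WT-RANKL-Ab or, among the 11 with enough UMIs, in Cd40-/- RANKL-Ab against WT-Control, with medians of 0.04 and 0.57 beside 0.07 and 0.06 over all genes. In Cd40-/- Control 1 was, Ppp1r12b, a regulatory subunit of myosin phosphatase (74.1 against 31.5 CPM; background 0.5% higher, 0.492% lower). The 3 with the most UMIs were Csrp1 (a LIM protein of smooth muscle; 517, 478, 392 and 809 CPM), Tgfb1i1 (a focal adhesion adaptor; 84.1, 107, 116 and 175 CPM) and Myh11 (smooth muscle myosin heavy chain; 67.0, 117, 82.1 and 77.4 CPM). The smooth muscle motor itself thus did not take the order of Acta2, and in WT-Control its level in all other cells was 62.4 CPM. Of 21 cytoplasmic actin and myosin genes none passed 2-fold in the 3 comparisons with WT-Control (background 0.166%, 0.5% and 1.42% higher), and the medians were 0.06, 0.24 and 0.53. Actb, the cytoplasmic beta-actin, was at 3458, 3930, 5808 and 6415 CPM, Actg1 at 2836, 2961, 3568 and 2943 CPM, and Myl6, the essential light chain, at 1654, 1943, 1875 and 2626 CPM.

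Myocd, which codes for myocardin, had 1 UMI over the Ccl21a-high cells of all libraries. Of 10 basal and myoepithelial genes, the keratins Krt17 (5042, 5408, 4362 and 4396 CPM), Krt14 (1997, 2523, 1776 and 3084 CPM) and Krt5 (1472, 1924, 1281 and 1535 CPM) had the most UMIs. Krt15 was 2-fold higher in Cd40-/- Control (1 of 10 genes; background 0.5%) and Col17a1 in Cd40-/- RANKL-Ab (1 of 9; background 1.42%) than in WT-Control. Krt15 was at 70.6 CPM against 18.9 CPM and Col17a1 at 28.2 CPM against 6.17 CPM in these pairs. Skeletal muscle genes, read as a contrast because rare mTECs use them, showed no 2-fold difference among the 5 of 9 with enough UMIs, and their median in Cd40-/- RANKL-Ab was -0.50.

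The genes whose levels were most like the mean of the members over 50 sums of class and library, among 12439 genes, were Lmod1 (Pearson r 0.946), Krt14 (0.934), Fstl1 (0.932), Tgfb1i1 (0.925), Fzd2 (0.924), Vwa1 (0.916), Col6a1 (0.914) and Kctd4 (0.910). Lmod1 codes for leiomodin, an actin filament nucleator of smooth muscle, and was at 43.2, 32.2, 50.1 and 71.0 CPM in Ccl21a-high cells. Among the members the correlation with that mean was 0.952 for Tagln, 0.9502 for Acta2, 0.944 for Myl9, 0.908 for Tpm2, 0.805 for Tpm1 and 0.755 for Pdlim3. It was 0.413 for Mylk and -0.231 for Cnn1. Sums from one library share its depth and free RNA, and each member is part of the mean, so the values describe an order and no more.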

How the data were processed

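Droplet 3′ RNA-seq was read from 4 deposited matrices of raw UMI counts, one per condition. The authors made these counts with Cell Ranger against mm10 (5.0.1 per the file headers, 5.1 in the submitters' processing notes); the annotation release is not given in the sources used here, and the kit is given as v3.1 in the study's methods and as v2 in the labels. Cells with fewer than 200 genes or over 25% of UMIs from mitochondria were left out. Marker sums per 10000 UMIs placed cells in 12 classes, first gate passed deciding. The limits were 10 for thymocyte genes, 75 cTEC, 20 tuft, 50 microfold, 20 neuroendocrine, 20 ciliated, 50 keratinocyte, 50 enterohepatic, 10 cycling, 20 progenitor, 50 Ccl21a and 2 Aire-positive markers. They were set after the marker distributions had been seen. Summed Mgp and Gpx3 of at least 10 divided the Ccl21a-high cells. No doublet caller was run. Results for 1 further gene list are not reported here.

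UMIs were summed per class and library and given per 1000000 (CPM) with exact Poisson intervals. Ratios have exact conditional binomial intervals, and shares of cells thinned to 1000 UMIs have Clopper-Pearson intervals. Cells are not replicates, so no test between conditions was made. A difference counts as 2-fold on log2(CPM + 10), over genes with at least 50 UMIs in the pair. On Poisson counts simulated from the WT-Control sums the intervals held the true ratio for 95.5% to 95.7% of genes. The simulation had no variation between cells, pools or libraries, so it checks the calculation alone. The members, lists and rules for named genes were chosen with earlier results of these data known. Named were all 9 members, the 8 genes most like the members and the 3 genes with the most UMIs of a list. No gene of the skeletal muscle list was named. Beyond them, single genes past 2-fold were named, which were chosen after their values were seen. Myocd was named outside these rules. Alternatives were other gates and filters, TMM scaling (edgeR 4.0.16), thinning, subtraction of free RNA and removal of cells with markers of other types. Free RNA was taken as the mean UMIs per cell in cells with thymocyte genes of the same library, not scaled for depth. Those cells also held the cTEC gene Psmb11 at 1025 to 1860 CPM, so the subtraction may take out more than free RNA. Coordinates are from GENCODE M21 on GRCm38 and promoters from RefSeq (GRCm38.p6). Python 3.11.15 with scipy 1.17.1 was used.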

Additional observations from a re-analysis of the deposited data

Results flagged for a closer look

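Tpm2 and Mylk stood out because the antibody's log2 ratio had opposite signs in the 2 genotypes. For Tpm2 in Ccl21a-high cells it was -0.19 in wild-type mice (WT-RANKL-Ab against WT-Control) and 0.36 in Cd40-deficient mice (Cd40-/- RANKL-Ab against Cd40-/- Control). For Mylk it was 0.48 in wild-type mice and -0.46 in Cd40-deficient mice, and this gene rests on 59 to 332 UMIs a library. The Cd40-deficient ratio of Mylk turned to 0.56 in thinned cells, so that the opposite sign was lost there. It turned to 1.55 after free RNA was subtracted, from the few Mylk UMIs then left in the Cd40-/- libraries. That subtraction left no Mylk UMIs in WT-Control, so the signs of the 2 genotypes could not be compared under it. Each ratio compares single libraries, and the difference between the genotypes was not tested.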

How the results depend on the processing

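The summed contractile genes in Ccl21a-high cells had, on the log2 scale, a ratio of 2.57 to all other cells of WT-Control. The ratios to WT-Control were 0.36 for WT-RANKL-Ab, 0.10 for Cd40-/- Control and 0.85 for Cd40-/- RANKL-Ab, and the ratio of Cd40-/- RANKL-Ab to Cd40-/- Control was 0.75. The values that moved beyond their counting interval follow in the same order. They were 2.54, 0.40, 0.078, 0.92 and 0.84 with a Ccl21a limit of 20 UMIs per 10000, 2.53, 0.31, 0.78 and 0.68 with a limit of 100 (without the Cd40-/- Control ratio), and 2.82, 0.30, -0.072, 0.79 and 0.86 with TMM factors, which shifted all genes by -0.06, -0.17 and -0.06 in the comparisons with WT-Control. They were 2.64, 0.28, 0.026, 0.67 and 0.65 with thinned cells. After free RNA was subtracted they were 3.82, 0.46, 0.25 and 0.99 (without the ratio of Cd40-/- RANKL-Ab to Cd40-/- Control). The free RNA was that of cells with thymocyte genes, not scaled for depth, so these last values may be too large. Means over cells gave 2.60, 0.26, 0.65 and 0.57 (without the Cd40-/- Control ratio). Totals without Ccl21a gave 2.61, 0.87 and 0.78 (without the WT-RANKL-Ab and Cd40-/- Control ratios). Removal of the 5% of cells with most UMIs gave 2.61, 0.32, 0.77 and 0.68 (without the Cd40-/- Control ratio). Cells with a mural or mesenchymal marker left out gave 2.97, 0.28, -0.069, 0.71 and 0.78. The settings that follow were chosen after the data had been seen. Only cells with Mgp and Gpx3 gave 2.65, 0.34, 0.77 and 0.67 (without the Cd40-/- Control ratio). Only cells without them gave 2.46, 0.43, 0.068, 0.96 and 0.89. The sum without Tpm2 gave 2.88, 0.63, 0.30, 1.19 and 0.89. Cells without a mural or mesenchymal marker other than Rgs5 gave 0.34, 0.041 and 0.81 to WT-Control. The ratio of Cd40-/- Control to WT-Control thus reversed under 2 of all these settings, and the cause was not tested.

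Of 583 values of single genes under alternatives, 555 kept their direction and 17 reversed among those whose interval left out 0. For Cd40-/- Control against WT-Control these were Acta2 (-0.0086), Tagln (-0.030) and Myl9 (-0.10) without mural-marker cells, Tagln (-0.057) and Myl9 (-0.053) with TMM factors, Tagln (-0.070) and Mylk (-0.26) with thinned cells, and Tagln (-0.026) and Myl9 (-0.0064) in cells without Mgp and Gpx3. For Cd40-/- RANKL-Ab against WT-Control they were Tpm2 as a mean over cells (-0.10) and thinned (-0.028), and Pdlim3 without mural-marker cells (0.35), after free RNA was subtracted (0.039) and in cells without Mgp and Gpx3 (0.045). For Cd40-/- RANKL-Ab against Cd40-/- Control they were Pdlim3 thinned (-0.035) and Mylk thinned (0.56) and after free RNA was subtracted (1.55). Counts of genes past 2-fold and of members high in the class stayed within 1.5 times their value under the other filters run. Of the 8 genes most like the members 5 were shared when sums of at least 500000 UMIs were used. No paired analysis was possible because each condition has 1 library. With single libraries, differences between pools of mice and between conditions cannot be told apart.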
